A study of Homo sapiens with 6 samples.

Results

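The genes described here are 48 components and targets of the NF-κB pathway, chosen by symbol from the 58676 genes of the expression table as the NF-κB subunits, their inhibitors, the kinases and adaptors that act before them and a set of inflammatory targets that leaves out the IL-1 and chemokine genes. RNA sequencing was performed on DCIS.COM, an established human breast line, basal in type, used to model ductal carcinoma in situ (DCIS). The 3 BCL9 KD samples came from cells transduced with a lentiviral PLKO.1 vector carrying an shRNA against BCL9, a coactivator of β-catenin, and the 3 NS control samples came from cells given the same vector with a non-silencing shRNA. Each sample was a T75 flask of its own, and the comparison asked which transcripts changed when BCL9 was reduced with a single shRNA. Both groups therefore carry a vector, p-values measure the spread between flasks, and how many transduced clones the cultures hold was not given in the sources used here.

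NF-κB is a family of dimeric transcription factors that are held in the cytoplasm by IκB proteins. Receptors of the TNF, Toll-like and IL-1 families act through adaptors and ubiquitin ligases to switch on the IKK complex, which marks IκB for degradation and frees the dimers to enter the nucleus. A separate, noncanonical branch runs through the kinase NIK and the processing of NFKB2, and several targets of NF-κB, among them NFKBIA and TNFAIP3, encode proteins that turn the pathway off.

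Expression was measured as FPKM, the reads counted on a gene scaled to its length and to the depth of the sample, and depth ranged from 15222452 to 26949026 reads on genes in the 6 samples. Fold changes are log2 values of FPKM + 0.5, BCL9 KD minus NS control, so those of weakly expressed genes understate the FPKM ratio. The knocked-down gene, BCL9, had NS control values of 6.25, 6.24 and 5.34 FPKM and BCL9 KD values of 2.86, 2.78 and 2.59 FPKM, or −0.99 on the log2 scale (limma adjusted p = 0.00773). The summed FPKM of 7 markers of basal mammary epithelium was 1469 to 1708 in NS control and 1524 to 1546 in BCL9 KD samples, and 0 of the 7 passed with limma, although EGFR (log2 fold change −0.26) and TP63 (0.27) had an unadjusted p under 0.05. That of 5 markers of epithelium in general was 578 to 689 in NS control and 531 to 561 in BCL9 KD samples, without overlap, with log2 fold changes of −0.26 for KRT8, −0.24 for KRT18, −0.16 for CDH1, −0.022 for KRT19 and 0.088 for EPCAM, and 0 of the 5 genes passed the limma test, although KRT8 and CDH1 had an unadjusted p under 0.05. By contrast, 8 leukocyte markers summed to 0.561 to 0.73 and 1.01 to 1.67 FPKM, with PTPRC at 1 read in 1 sample and at 0 in the others. Most of this sum was CD14, at 0.56, 0.288 and 0.418 FPKM in NS control and 1.38, 0.964 and 0.778 FPKM in BCL9 KD samples, from 11 to 49 reads, which did not pass (log2 fold change 0.73, limma adjusted p = 0.0811). Fibroblast markers summed to 0.653 to 0.677 and 0.646 to 0.827 FPKM with COL3A1 at 0, and 4 endothelial markers summed to 1.8 to 2.42 and 3.22 to 4.06 FPKM, nearly all of it PECAM1, which was higher in BCL9 KD cells (log2 fold change 0.61, limma adjusted p = 0.0477) while VWF, CDH5 and KDR stayed below 0.2 FPKM. In bulk RNA of this kind, fewer cells expressing a gene and less of its RNA per cell cannot be told apart.

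The 250 bases before the RefSeq start of the 5 NF-κB genes that differed between the groups, and of NFKBIA as the best known target of the pathway, are given below, since a κB site in a promoter is how NF-κB is known to reach a gene. They were taken from RefSeq (GRCh38.p14), are written 5′ to 3′ along the gene, and carry in capitals each match to the κB consensus, a motif of 10 bases searched on both strands. RefSeq starts differ from the gene starts of the expression table given further on, so that the windows of MYD88 (for the most part), IRAK2, ZC3H12A and MAP3K14 and that of the downstream NFKBIZ start reach into the span of the gene in that table.
NFKBIZ upstream start (chr3:101827740-101827989, plus strand): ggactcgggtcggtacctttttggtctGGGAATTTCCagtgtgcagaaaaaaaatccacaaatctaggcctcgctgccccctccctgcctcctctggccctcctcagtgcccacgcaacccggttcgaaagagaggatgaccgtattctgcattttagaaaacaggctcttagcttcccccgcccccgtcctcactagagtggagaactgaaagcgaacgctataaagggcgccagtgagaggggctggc
NFKBIZ downstream start (chr3:101849264-101849513, plus strand): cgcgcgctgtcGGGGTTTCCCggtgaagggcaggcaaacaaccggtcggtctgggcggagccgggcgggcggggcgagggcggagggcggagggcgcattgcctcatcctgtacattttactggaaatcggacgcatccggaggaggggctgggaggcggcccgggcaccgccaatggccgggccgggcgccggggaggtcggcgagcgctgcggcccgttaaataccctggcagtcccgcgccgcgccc
MAP3K14 (chr17:45317021-45317270, minus strand): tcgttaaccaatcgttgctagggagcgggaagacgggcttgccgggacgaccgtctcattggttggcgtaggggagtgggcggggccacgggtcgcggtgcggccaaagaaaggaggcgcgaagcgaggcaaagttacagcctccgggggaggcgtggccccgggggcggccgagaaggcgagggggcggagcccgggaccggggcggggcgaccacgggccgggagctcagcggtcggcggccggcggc
MYD88 (chr3:38138411-38138660, plus strand): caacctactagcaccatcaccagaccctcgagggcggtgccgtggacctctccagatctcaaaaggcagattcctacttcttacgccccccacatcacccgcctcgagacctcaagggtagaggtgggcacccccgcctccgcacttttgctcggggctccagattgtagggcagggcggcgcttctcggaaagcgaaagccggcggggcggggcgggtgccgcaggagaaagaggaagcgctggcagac
IRAK2 (chr3:10164669-10164918, plus strand): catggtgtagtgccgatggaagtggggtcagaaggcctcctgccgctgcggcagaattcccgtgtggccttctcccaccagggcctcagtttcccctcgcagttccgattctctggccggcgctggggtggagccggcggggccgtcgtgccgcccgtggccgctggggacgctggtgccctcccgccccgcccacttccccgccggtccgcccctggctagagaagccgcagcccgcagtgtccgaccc
ZC3H12A (chr1:37474330-37474579, plus strand): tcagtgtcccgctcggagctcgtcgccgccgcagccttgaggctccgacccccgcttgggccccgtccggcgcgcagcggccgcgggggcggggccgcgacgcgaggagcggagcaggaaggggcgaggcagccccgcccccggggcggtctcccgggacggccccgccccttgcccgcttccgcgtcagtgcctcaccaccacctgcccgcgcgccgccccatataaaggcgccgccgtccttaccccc
NFKBIA (chr14:35404750-35404999, minus strand): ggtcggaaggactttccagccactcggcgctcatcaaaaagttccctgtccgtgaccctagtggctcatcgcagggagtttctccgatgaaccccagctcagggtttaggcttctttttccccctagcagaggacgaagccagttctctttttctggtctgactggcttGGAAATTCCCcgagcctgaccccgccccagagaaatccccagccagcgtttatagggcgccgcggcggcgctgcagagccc

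NFKBIZ held a match at each of its 2 annotated starts and NFKBIA held 1, on the strand opposite to the gene, whereas the windows of MAP3K14, MYD88, IRAK2 and ZC3H12A held none. The match at the downstream start of NFKBIZ reads as a κB consensus on both strands and was counted once. Over the whole promoter table, 11.8% of 27305 genes had a match in such a window. The share was 15.7% among the tested genes with a promoter entry and 16.6% among those that differed between the groups. It was 16 of the 42 NF-κB genes with an entry (38.1%), and these genes include known targets of the factor. The genes without an entry were NFKBIE, TNFRSF12A, IKBKB, RIPK2, CSF3 and RELB. A match describes the letters of the window, and binding was not measured here.

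Of the 48 NF-κB genes, 45 had a mean of at least 0.5 FPKM and were tested with limma together with 13745 genes in all. TNF, with 2 to 8 reads per sample, TRAF1, with 4 to 40 reads, and CSF3, with 0 to 4 reads, were below this level, as was a second table entry named SOD2 with 0 to 3 reads. In BCL9 KD cells, NFKBIZ, IRAK2 and ZC3H12A rose and MAP3K14 and MYD88 fell at an adjusted p under 0.05. These 5 genes were 11.1% of the 45, against 5.87% of all genes tested, of which 2.96% were higher and 2.91% lower. The fold changes ran from −0.49 to 0.76 with a median of 0.051, and 26 were above and 19 below 0, while the median over all genes was 0.04. An unadjusted p under 0.05 was reached by 13 of the 45 genes (28.9%) and by 27.5% of all genes. The 3 BCL9 KD values lay above all NS control values for 11 of the 45 and below them for 5, against 17.8% and 16.4% of all genes, and an exact permutation test of 3 against 3 cannot give a two-sided p under 0.1. The share of NF-κB genes whose groups did not overlap, 35.6%, was near that of all genes, 34.2%.

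**Figure D1:**
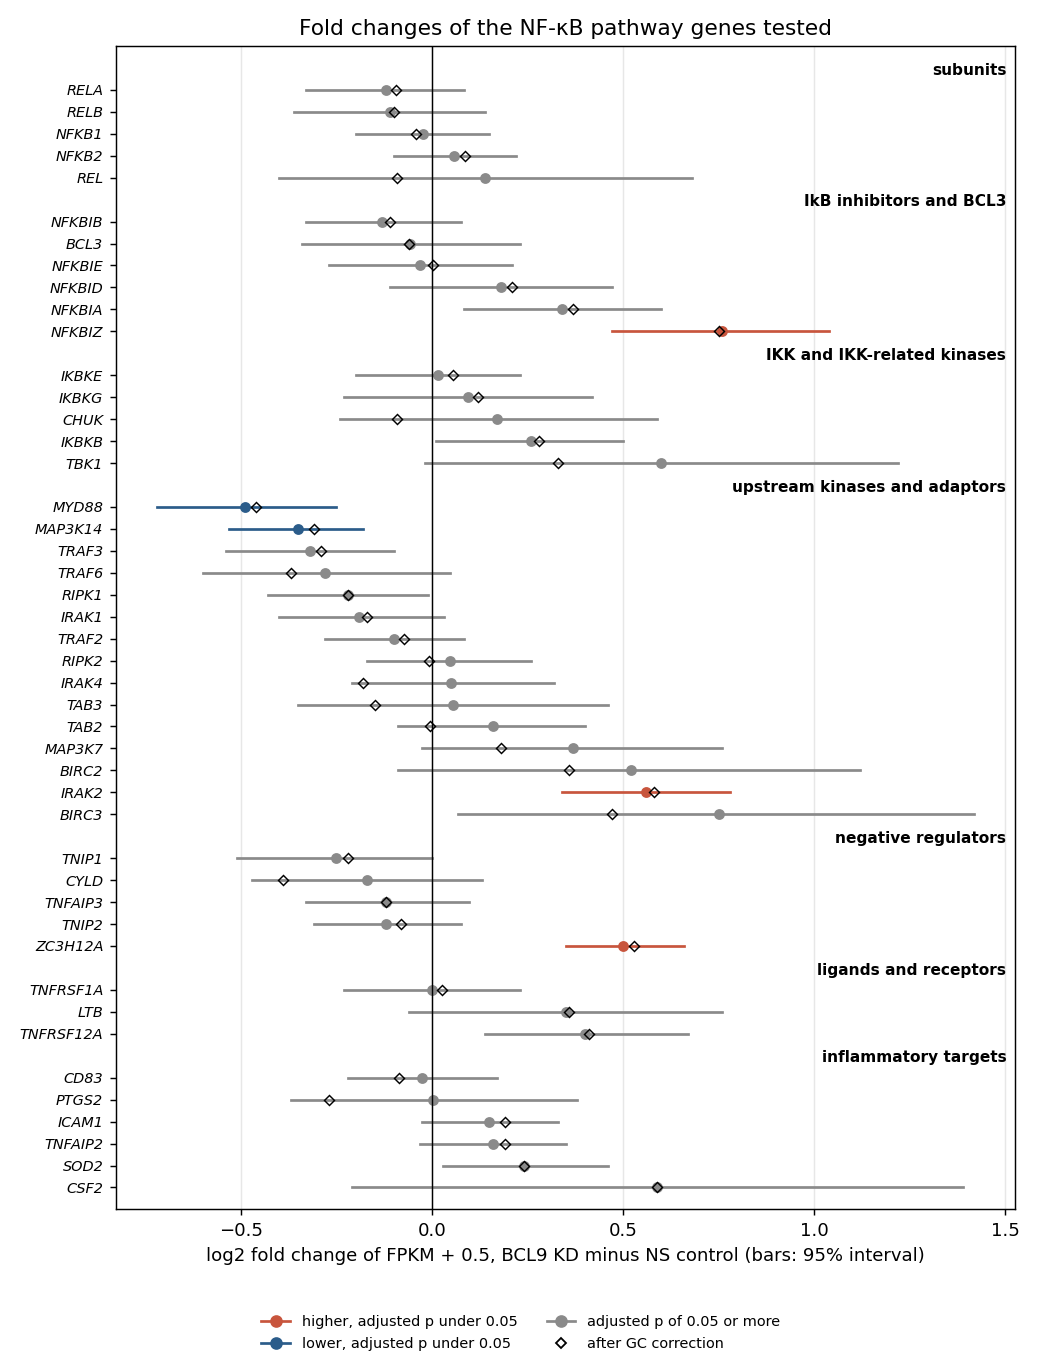
Log2 fold change of FPKM + 0.5, BCL9 KD minus NS control (x axis), for the 45 NF-κB genes tested, grouped by role, with filled points for the estimate, bars for its 95% interval and open diamonds for the estimate after a correction for GC content (SOD2 has no GC value and is uncorrected). Colour marks the 5 genes with an adjusted p under 0.05, NFKBIZ, IRAK2 and ZC3H12A above 0 and MAP3K14 and MYD88 below it.

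Of the 5 genes, all passed with a correction of each sample for GC content, in which 7 of the 45 NF-κB genes and 11.4% of all genes passed, and all passed with voom on the reads recovered from the FPKM, in which 5 of the 45 and 10.1% of all genes passed. The calls depended on single samples. Without NS control replicate 1, 3 NF-κB genes passed (4.98% of all genes), NFKBIZ, IRAK2 and ZC3H12A, while the limma adjusted p was 0.0501 for MAP3K14 and 0.0586 for MYD88. Without NS control replicate 2, BCL9 KD replicate 2 or BCL9 KD replicate 3, 0 of them passed with limma, as against 0.0873%, 0.0943% and 0.0363% of all genes in these fits. An unadjusted p under 0.05 was then reached by 9, 8 and 7 NF-κB genes (20%, 18.2% and 15.9% of those tested), near the 19%, 17.5% and 16.9% of all genes. Without NS control replicate 3, 8 passed (12.6% of all genes), and without BCL9 KD replicate 1, 4 passed (5.46%).

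The 5 subunit genes showed no change that passed the test. NFKB2, the p100 precursor of p52, was at 16.1, 16.0 and 15.3 FPKM in NS control samples, always in the order of replicates 1, 2 and 3, and at 16.3, 15.7 and 17.2 FPKM in the BCL9 KD replicates, with a log2 fold change of 0.057 (95% interval −0.10 to 0.22). NFKB1, the p105 precursor of p50, was at 14.8, 14.4 and 13 FPKM in NS control and 13.9, 13.6 and 13.8 FPKM in BCL9 KD samples (log2 fold change −0.024, 95% interval −0.20 to 0.15). For both genes the groups overlapped. RELB, the transactivating partner of p52, was at 12.3, 9.46 and 10.1 FPKM in NS control and at 9.54, 9.96 and 9.78 FPKM in BCL9 KD samples (log2 fold change −0.11, 95% interval −0.36 to 0.14). RELA, which encodes p65, was at 10.3, 9.73 and 8.5 FPKM in NS control and at 8.44, 8.79 and 8.77 FPKM in BCL9 KD samples (log2 fold change −0.12, 95% interval −0.33 to 0.084). The intervals of these 4 subunits leave out changes beyond 0.36 in either direction on the log2 scale. REL, which encodes c-Rel, was the least expressed subunit, at 1.12, 1.66 and 2.43 FPKM in NS control and 2.24, 1.58 and 1.89 FPKM in BCL9 KD samples, and its interval was wide (log2 fold change 0.14, 95% interval −0.40 to 0.68, −0.091 after GC correction). By mean FPKM in NS control cells the order was NFKB2, NFKB1, RELB, RELA and REL, and the values of RELB and RELA overlapped. None of the 5 had an unadjusted p under 0.05 with limma, and 0 passed with voom.

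Among the IκB family, NFKBIZ rose in BCL9 KD cells. NFKBIZ (ENSG00000144802, chromosome 3 of GRCh38, 101827991 to 101861022, plus strand) encodes IκBζ, an inducible nuclear IκB protein that joins NF-κB at the promoters of a subset of its targets, and both of its promoters printed above carry a κB match. It was at 2.8, 3.84 and 3.86 FPKM in NS control (376, 458 and 347 reads) and at 6.24, 6.12 and 6.23 FPKM in the BCL9 KD replicates (651, 974 and 576 reads). Every BCL9 KD value was above every NS control value, and NS control replicate 1 was the lowest of all. The mean was 3.5 ± 0.603 FPKM in NS control and 6.2 ± 0.0646 FPKM in BCL9 KD cells (SD, n = 3), or 0.76 on the log2 scale with a standard error of 0.122 (limma adjusted p = 0.0274). It was 0.75 after GC correction (limma adjusted p = 0.0109) and 0.62 to 0.82 with a sample left out, passing in 3 of 6 such fits. NFKBIZ overlaps NXPE3 on the same strand, at a mean of 2.65 FPKM, whose log2 fold change was −0.029.

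NFKBIA, which encodes IκBα, the inhibitor that NF-κB induces in its own feedback loop, was at 24.2, 21.7 and 19.0 FPKM in NS control and at 24.8, 28.2 and 29.6 FPKM in BCL9 KD samples. The groups did not overlap, by a small margin between NS control replicate 1 and BCL9 KD replicate 1, and the log2 fold change of 0.34 (95% interval 0.084 to 0.60) did not pass the test (limma adjusted p = 0.104, and 0.0577 after GC correction). The other 4 genes of the family did not pass either. NFKBIB, NFKBIE and BCL3, an atypical IκB that binds p50 and p52 dimers, had log2 fold changes of −0.13, −0.03 and −0.057, and NFKBID, another nuclear IκB protein, had 0.18.

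**Figure D2:**
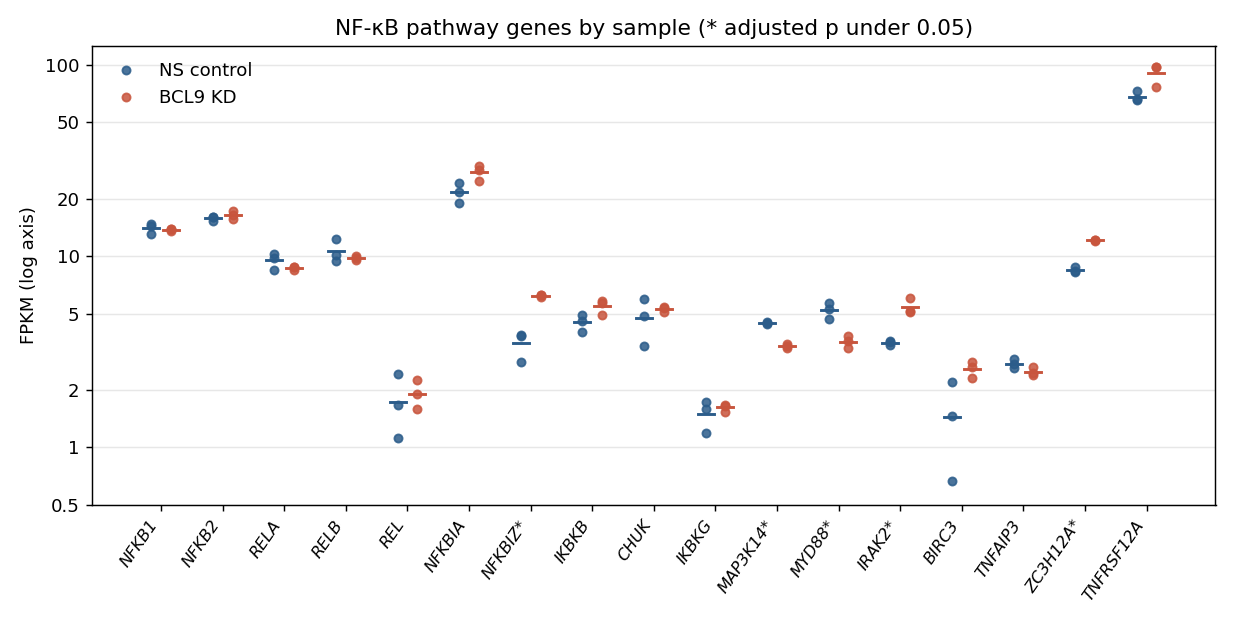
FPKM on a log axis for the 17 NF-κB genes described one by one, with a point for each sample, blue for NS control and red for BCL9 KD, and a bar at the mean of the 3 samples. Asterisks mark the 5 genes with an adjusted p under 0.05, and the points of the 2 groups overlap for all 5 subunits.

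The IKK complex and the related kinases showed no change that passed the test. IKBKB, the kinase of the canonical branch, was at 4.02, 4.56 and 4.93 FPKM in NS control and at 5.8, 4.93 and 5.7 FPKM in BCL9 KD samples (log2 fold change 0.26, limma adjusted p = 0.17), with BCL9 KD replicate 2 within the range of the controls. CHUK, which encodes IKKα, was at 3.39, 4.87 and 5.95 FPKM in NS control and at 5.42, 5.33 and 5.1 FPKM in BCL9 KD samples, a log2 fold change of 0.17 that turned to −0.092 after GC correction. IKBKG, the regulatory subunit NEMO, was at 1.19, 1.72 and 1.58 FPKM in NS control and at 1.54, 1.67 and 1.65 FPKM in BCL9 KD samples (log2 fold change 0.095), and reads can be lost between IKBKG and a near-identical copy, IKBKGP1. For all 3 genes NS control replicate 1 was the lowest of the 6 samples. IKBKE was at 0.015 and TBK1, a kinase better known from interferon signalling, at 0.60 (95% interval −0.017 to 1.22), which became 0.33 after GC correction and 0.30 without NS control replicate 1. With each sample left out in turn TBK1 ran from 0.30 to 0.86 and passed in 1 of 6 fits. One of the 5 genes, IKBKB, had an unadjusted p under 0.05 with limma, and 0 passed with voom.

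Upstream of IKK, IRAK2 rose while MYD88 and MAP3K14 fell, out of 15 kinases and adaptors tested. IRAK2 (ENSG00000134070, chromosome 3, 10164865 to 10243743, plus strand) encodes one of the IL-1 receptor-associated kinases that assemble on MYD88. It was at 3.41, 3.56 and 3.58 FPKM in NS control and at 6.06, 5.15 and 5.11 FPKM in the BCL9 KD replicates. The control values lay close together and the groups were well apart, with a log2 fold change of 0.56 and a standard error of 0.0914 (limma adjusted p = 0.0276). With a sample left out it was 0.49 to 0.60, and it passed in 3 of 6 fits.

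MYD88 (ENSG00000172936, chromosome 3, 38138478 to 38143022, plus strand) encodes the adaptor of the IL-1 receptor and of most Toll-like receptors. It was at 5.29, 5.7 and 4.68 FPKM in NS control and at 3.32, 3.58 and 3.82 FPKM in BCL9 KD samples, without overlap. Its log2 fold change was −0.49 with a 95% interval of −0.72 to −0.25 (limma adjusted p = 0.0422), opposite in sign to that of IRAK2, and it passed in 1 of 6 fits with a sample left out, over which the change was −0.56 to −0.43. IRAK1 and IRAK4, kinases of the same complex, had log2 fold changes of −0.19 and 0.051 and did not pass. IRAK1 was at 69.2 to 86.9 FPKM in NS control and 67.7 to 70.3 FPKM in BCL9 KD samples.

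MAP3K14 (ENSG00000006062, chromosome 17, 45263121 to 45317040, minus strand) encodes NIK, the kinase that starts the noncanonical branch. It was at 4.49, 4.43 and 4.52 FPKM in NS control and at 3.4, 3.32 and 3.47 FPKM in BCL9 KD samples. Both groups were tight and did not overlap, and the log2 fold change was −0.35 with a standard error of 0.0739 (limma adjusted p = 0.0445). It passed in 1 of 6 fits with a sample left out, with a change of −0.37 to −0.34. MAP3K14-AS1, an antisense gene that overlaps it, had a mean of 0.46 FPKM, and reads of the 2 genes cannot be told apart unless the counting used the strand, a setting not given in the sources used here.

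The ubiquitin ligases and adaptors that hold NIK at a low level, TRAF2, TRAF3, BIRC2 and BIRC3, did not pass the test and did not share a direction. BIRC3, which encodes cIAP2 and is itself a target of NF-κB, was at 0.668, 1.46 and 2.19 FPKM in NS control and at 2.63, 2.31 and 2.79 FPKM in BCL9 KD samples. NS control replicate 1 was far below the others, and the log2 fold change of 0.75 (95% interval 0.068 to 1.42, limma adjusted p = 0.15) did not pass. Without NS control replicate 1 it was 0.42, and without NS control replicate 3 it was 1.02 and passed (limma adjusted p = 0.0438). BIRC2, which encodes cIAP1, had a log2 fold change of 0.52 (95% interval −0.089 to 1.12), TRAF3 had −0.32 (95% interval −0.54 to −0.099, limma adjusted p = 0.085) and TRAF2 had −0.10. After GC correction BIRC3 was at 0.47 and BIRC2 at 0.36, and BIRC2 was at 0.20 without NS control replicate 1. Of the rest, the kinase TAK1, encoded by MAP3K7, was at 0.37 (0.18 without NS control replicate 1) and its partners TAB2 and TAB3 were at 0.16 and 0.056 (0.06 and −0.14 without that sample), while TRAF6 was at −0.28, RIPK1 at −0.22 and RIPK2 at 0.047 on the log2 scale, and none passed.

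Among the negative regulators, ZC3H12A rose. ZC3H12A (ENSG00000163874, chromosome 1, 37474552 to 37484379, plus strand) encodes Regnase-1, an RNase that degrades the mRNAs of inflammatory genes. It was at 8.21, 8.74 and 8.32 FPKM in NS control and at 12.0, 12.2 and 12.2 FPKM in BCL9 KD samples. The mean went from 8.42 ± 0.279 to 12.1 ± 0.133 FPKM (SD, n = 3), which is 0.50 on the log2 scale with a standard error of 0.0657 (limma adjusted p = 0.0166), the lowest adjusted p of the 45 genes. Its range with a sample left out was 0.48 to 0.53, and it passed in 3 of 6 fits. TNFAIP3, which encodes the ubiquitin-editing enzyme A20 and is a textbook target of NF-κB, was at 2.89, 2.72 and 2.59 FPKM in NS control and at 2.44, 2.62 and 2.38 FPKM in BCL9 KD samples (log2 fold change −0.12, 95% interval −0.33 to 0.098). TNIP1 and TNIP2, partners of A20, had log2 fold changes of −0.25 and −0.12. CYLD, a deubiquitinase of the pathway, had −0.17 (limma adjusted p = 0.417) and −0.39 after GC correction, which passed the test (limma adjusted p = 0.0294).

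Of the ligands and receptors, 0 of 3 tested passed with limma or with voom, and 1 had an unadjusted p under 0.05. This was TNFRSF12A, the receptor of the cytokine TWEAK, at 72.7, 66.5 and 65.1 FPKM in NS control and 76.6, 97.8 and 97.8 FPKM in BCL9 KD samples. The groups did not overlap, BCL9 KD replicate 1 was nearest to the controls, and the log2 fold change was 0.40 (95% interval 0.14 to 0.67, limma adjusted p = 0.0758), with an adjusted p of 0.0454 after GC correction. LTB, a ligand of the noncanonical branch, was at 2.77 to 3.85 FPKM in NS control and 3.54 to 5.53 FPKM in BCL9 KD samples (log2 fold change 0.35, limma adjusted p = 0.238). TNFRSF1A, the main TNF receptor, had a log2 fold change of −0.00076 (95% interval −0.23 to 0.23), and TNF RNA was near the limit of detection, with 2 to 8 reads in NS control and 4 to 6 reads in BCL9 KD samples.

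The 6 inflammatory targets tested among the 48 genes did not pass with limma or voom, and 1 of them, SOD2, had an unadjusted p under 0.05. ICAM1, a leukocyte adhesion molecule, was at 21.6 to 25.2 FPKM in NS control and 25.7 to 26.2 FPKM in BCL9 KD samples (log2 fold change 0.15, 95% interval −0.027 to 0.33). SOD2, the mitochondrial superoxide dismutase, was at 0.24 and TNFAIP2 at 0.16 on the log2 scale, and for all 3 genes the groups did not overlap, with the BCL9 KD values higher. The same held for 17.8% of all genes tested, so it is a common outcome in these data. PTGS2, which encodes COX-2, had a log2 fold change of 0.0034 from 48 to 74 reads per sample, and CD83 had −0.025. CSF2, a colony-stimulating factor, rested on 0 to 17 reads per sample (log2 fold change 0.59, 95% interval −0.21 to 1.39, and 0.27 without NS control replicate 1). SOD2 overlaps ACAT2 and WTAP on the opposite strand, so its level carries the same uncertainty about strand as that of MAP3K14.

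NS control replicate 1 departed from the other samples by the GC content of transcripts, and the cause of this departure was not tested. The median deviation of genes of low GC content (43.4% or less) minus that of genes of high GC content (56.5% or more) was −0.478 on the log2 scale in this sample, against −0.0625 and 0.167 in the other NS control samples and 0.097 to 0.161 in the BCL9 KD samples. Of the NF-κB genes tested, 11 had transcripts of low GC content, REL, CHUK, TBK1, MAP3K7, TAB2, TAB3, IRAK4, BIRC2, BIRC3, CYLD and PTGS2, and NS control replicate 1 was the lowest of the 6 samples for 10 of them. Relative to the mean of the other NS control samples it was between −0.98 and −0.17 for these genes, with a median of −0.58. For the 19 genes of high GC content the median was 0.11, and it was −0.0052 for the 14 between. The median fold change of the 11 genes was 0.16 as measured and −0.091 after GC correction, while for the 19 genes it was −0.03 and 0.0031. Of the 45 genes, 26 were above 0 as measured and 21 after GC correction, when the median of all genes also moved from 0.04 to −0.0099. The 5 genes that passed did not have low GC content, and their values in NS control replicate 1 differed from the mean of the other NS control samples by −0.40 for NFKBIZ, −0.058 for IRAK2, −0.052 for ZC3H12A, 0.0037 for MAP3K14 and 0.031 for MYD88 on the log2 scale.

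**Figure D3:**
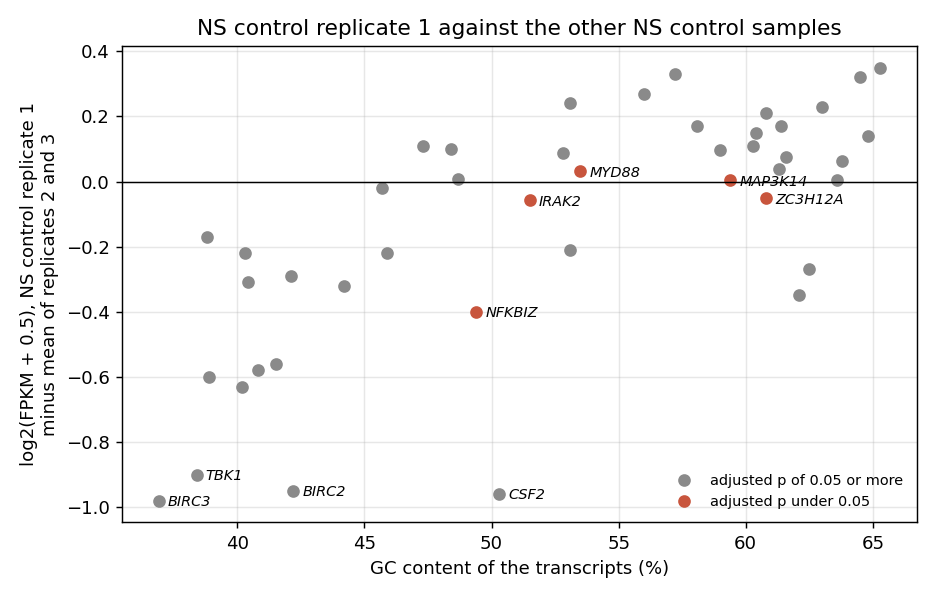
Each point is an NF-κB gene with a GC value (44 genes). The x axis is the GC content of its transcripts in percent and the y axis is log2(FPKM + 0.5) in NS control replicate 1 minus the mean of NS control replicates 2 and 3. Genes of low GC content lie below 0, at −0.98 for BIRC3, while 4 of the 5 genes with an adjusted p under 0.05 (red) lie near 0 and NFKBIZ lies at −0.40.

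Other components of the pathway were taken from a list of 60 genes of receptors, adaptors, ubiquitin ligases and their regulators. Of these 49 were tested and 3 passed, all lower in BCL9 KD cells, with a median log2 fold change of 0.013. This share, 6.12%, was near the 5.87% of all genes tested, of which 2.91% were lower. TNFRSF10B, a death receptor for TRAIL, was at 37.1, 40.2 and 37.5 FPKM in NS control and at 29.7, 30.1 and 29.2 FPKM in BCL9 KD samples (log2 fold change −0.36, limma adjusted p = 0.0324). TNFRSF10A, the other death receptor for TRAIL, was at 15.3, 15.7 and 15.4 FPKM and at 12.4, 11.9 and 12.6 FPKM (log2 fold change −0.32, limma adjusted p = 0.0389). PDLIM2, which promotes the degradation of nuclear p65, was at 2.83, 2.63 and 2.73 FPKM and at 1.74, 1.87 and 1.51 FPKM (log2 fold change −0.55, limma adjusted p = 0.0352). The 2 TRAIL receptors passed without NS control replicate 1 and with GC correction, and PDLIM2 had a limma adjusted p of 0.0514 without that sample. Over the 6 fits with a sample left out, TNFRSF10B passed in 3, TNFRSF10A in 2 and PDLIM2 in 1. Without NS control replicate 2, BCL9 KD replicate 2 or BCL9 KD replicate 3, 0 of the 49 passed.

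A further list of 42 inflammatory target genes, none of them among the 48, was described in the same way. Of the 31 tested, 10 passed (32.3%, against 5.87% of all genes), 8 of them higher and 2 lower in BCL9 KD cells, and the median log2 fold change was 0.19. Such genes answer to several transcription factors besides NF-κB, and the list holds genes known from earlier results of these data. The largest change was in LCN2, which encodes lipocalin 2, an iron-scavenging protein of the innate defence, at 42.7, 45.2 and 47.6 FPKM in NS control and at 94.7, 133 and 135 FPKM in BCL9 KD samples (log2 fold change 1.39, standard error 0.142, limma adjusted p = 0.00942). SAA1, an acute phase protein, was at 32.3, 24.2 and 34.9 FPKM and at 51.4, 72.7 and 74.6 FPKM (log2 fold change 1.10, limma adjusted p = 0.0291). Reads can be split between SAA1 and the closely related SAA2, whose log2 fold change of 0.81 did not pass. PTX3, a soluble pattern recognition protein, was at 4.56, 5.83 and 5.52 FPKM and at 7.85, 9.83 and 8.95 FPKM (log2 fold change 0.69, limma adjusted p = 0.0308). In BCL9 KD replicate 1, LCN2, SAA1 and PTX3 were lower than in the other BCL9 KD samples and above every control.

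KYNU, an enzyme of tryptophan breakdown, and BCL2A1, an inhibitor of apoptosis, also rose, by 0.69 and 0.67 on the log2 scale, from 0.43 to 0.579 FPKM up to 1.03 to 1.15 FPKM and from 3.56 to 3.92 FPKM up to 6.07 to 6.23 FPKM. After GC correction each was at 0.44 and did not pass (limma adjusted p = 0.121 for KYNU and 0.112 for BCL2A1). The remaining 3 that rose had log2 fold changes of 0.30 to 0.64. B4GALT1, a galactosyltransferase, fell by 0.54 on the log2 scale from 26.7, 26.3 and 24.0 FPKM to 18.0, 17.3 and 17.2 FPKM (limma adjusted p = 0.0164). TNC, the extracellular matrix protein tenascin C, fell by 0.51 from 42.5, 47.4 and 41.5 FPKM to 32.1, 30.6 and 29.1 FPKM (limma adjusted p = 0.0235). Without NS control replicate 1, 8 of the 31 genes passed (4.98% of all genes). Without NS control replicate 3 or BCL9 KD replicate 1, 11 and 7 passed (12.6% and 5.46% of all genes). Without NS control replicate 2, BCL9 KD replicate 2 or BCL9 KD replicate 3, 0 passed with limma, against 0.0873%, 0.0943% and 0.0363% of all genes. In the 3 fits where 0 passed, 14, 16 and 16 of the 31 (45.2%, 51.6% and 51.6%) had an unadjusted p under 0.05, against 19%, 17.5% and 16.9% of all genes. These shares are not an independent test, since the list was chosen with earlier results of these data known. A κB match in the window before the start was held by 12 of the 31 genes of this list with a promoter entry (38.7%), and by 10 of 48 (20.8%) for the list of other pathway genes.

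**Figure D4:**
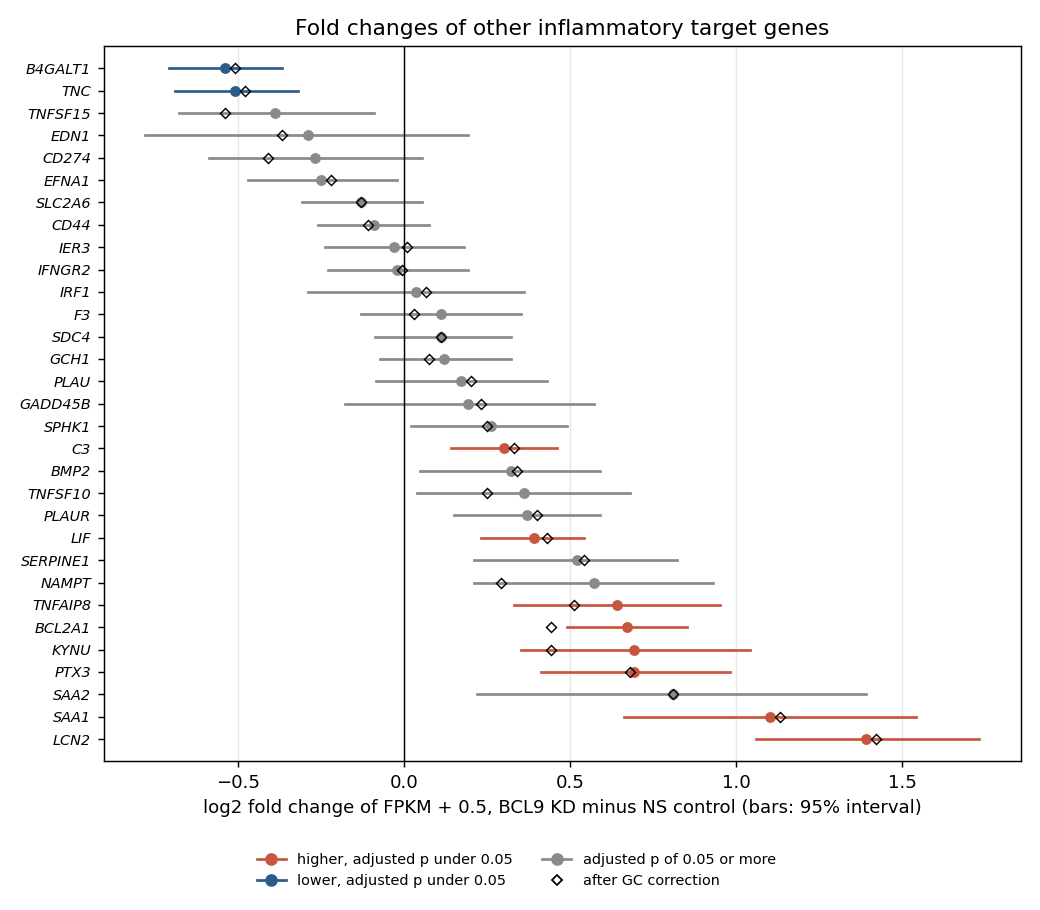
Log2 fold change of FPKM + 0.5, BCL9 KD minus NS control (x axis), for the 31 other inflammatory target genes tested, ordered by size, with bars for the 95% interval and open diamonds for the value after GC correction. The 8 genes that rose are in red, with LCN2 at 1.39 and SAA1 at 1.10, and the 2 that fell, B4GALT1 and TNC, are in blue.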

How the data were processed

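RNA was sequenced from 3 NS control and 3 BCL9 KD samples, grouped by their labels, although the methods describe a test with 2 replicates per condition. Paired-end reads were mapped with STAR and counted with HTSeq 0.6.1 by the authors, who deposited FPKM values and the gene length in bases behind them, an other unit of the same table. Positions are those of hg38 per the labels. The NF-κB genes, the other lists and the tests were chosen with earlier results of these data known.

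FPKM multiplied by gene length and divided by the step of each sample, the value of 1 read, gave whole reads for 100% of values (tolerance 0.1). Genes with a mean of at least 0.5 FPKM were tested with limma 3.58.1 in R 4.3.3 (empirical Bayes trend) on log2(FPKM + 0.5), with Benjamini-Hochberg adjustment over all of them and a threshold of 0.05. The study's own test was not repeated here, and voom was run on the reads recovered from the FPKM. Genes described one by one were those past the threshold, the subunits, 5 core regulators, and those with an unadjusted p under 0.05 and a log2 fold change of 0.4 or more in size. For the other lists, at most the 5 largest changes in each direction were named. The GC correction fitted a loess curve (span 0.3) of each sample to the mean GC content of a gene's GRCh37 transcripts, known for 98.8% of the genes tested. Further alternatives were another added value, filter, scaling or limma setting, voom, the replicate block and leaving out each sample. The code of the fit was tried on simulated data with larger changes than those of the NF-κB genes and no departure of a sample by GC content. That trial does not show how well the calls here hold. Read numbers carry counting error and, without molecular identifiers, may include copies of the same molecule. Correlations of log2 values within a group were 0.964 to 0.987.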

Additional observations from a re-analysis of the deposited data

How the results depend on the processing

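Of 323 refits of the 17 NF-κB genes described one by one, 271 kept the direction and the side of the threshold, 35 lost the call, 5 gained it and 12 changed sign. The sign changes were in genes that did not pass. For NFKB1 the log2 fold change was 0.011 without NS control replicate 1 (−0.077 to 0.011 over all samples left out in turn) and 0.029 with GC correction in addition. REL was at −0.091 with GC correction, with or without the replicate block, −0.073 without NS control replicate 1 (range −0.073 to 0.35) and −0.15 with both. CHUK was at −0.092, −0.024 (range −0.024 to 0.34) and −0.12 in the same order, and IKBKG at −0.022 without that sample (range −0.022 to 0.18) and −0.03 with both. The combination of GC correction with that sample left out was chosen after seeing the data, and with it 6 NF-κB genes (13.3%) and 6.94% of all genes passed.

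With no filter on low FPKM, 1 NF-κB gene, 0 other pathway genes and 3 other inflammatory targets passed (0.462% of all genes), and with limma without the trend 3, 1 and 6 (2.42% of all genes). GC correction gave 5 other pathway genes (10.2%), against 11.4% of all genes. With the replicate block 0 of each list passed, as did 0 of all 13745 genes, with 11, 10 and 16 (24.4%, 20.4% and 51.6%) at an unadjusted p under 0.05 against 23.5% of all genes. The BCL9 log2 fold change was then −0.99 (limma adjusted p = 0.0656). The share of 51.6% is not an independent test, since the other inflammatory targets were chosen with earlier results of these data known. GC correction with the replicate block gave 0, 0 and 2, and 0.749% of all genes. Samples of the same number did not deviate together (correlations of −0.147, −0.0884 and −0.00287). With 3 samples a group this cannot show whether flasks of the same number were handled together, and the labels do not say. With each sample left out in turn, the counts ran from 0 to 8, 0 to 5 and 0 to 11, and the BCL9 log2 fold change from −1.06 to −0.95. BCL9 itself did not pass without NS control replicate 2, BCL9 KD replicate 2 or BCL9 KD replicate 3 (limma adjusted p = 0.0636, 0.0589 and 0.07). The cause of these shifts was not tested. With 3 samples a group, single samples decided calls, and genes with few reads, such as TNF and CSF2, are limited by depth.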
